A study of Drosophila melanogaster with 4 samples.

Results

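The peaks described here are the 24 peaks of GFP-tagged Usp that lie on arm 3R of *Drosophila melanogaster* with a midpoint from 17400000 to 17500000 (FlyBase release 5). They were selected on the called position of each peak alone, in the authors' peak list, which holds 3053 peaks in all and 759 on 3R. They are 3.16% of the peaks of 3R, on an interval that makes up 0.360% of the stretch that the peaks of 3R span. The stretch was chosen because it holds peaks, so their number and crowding are descriptions and were not tested.

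Wandering larvae, which are in the third instar and about to pupariate, were the source of the chromatin for this ChIP-seq map of Usp. Chromatin from 2 samples was immunoprecipitated with ab290, a rabbit polyclonal antibody to GFP, and 2 samples of input DNA served as controls. All 4 samples carry the strain label USP-GFP, the genotype label PBac{y[+]-attP-3B}VK00033 and a transgene with the genomic coding region of *usp*. Neither age in hours nor treatment is given, and sex is labelled unknown. The tagged receptor was thus read in whole larvae of 1 line, in a mixture of their tissues. The labels do not say whether these larvae also had untagged Usp. The protocol differs from the strain label in that it speaks of y; bw cn sp flies. No unmarked line was among the samples used, so binding of the antibody in larvae without the tag was not measured. The deposited list is for the whole series, with 1 score per peak and no value per library. No peak therefore has a replicate mean or spread, and the sequencing depth behind each value is unknown.

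Ultraspiracle (Usp) is the fly member of the retinoid X receptor family of nuclear receptors. With the ecdysone receptor EcR it forms the heterodimer that binds ecdysone response elements in DNA and turns genes on or off as the steroid 20-hydroxyecdysone rises and falls. Pulses of this hormone end larval life and drive metamorphosis. *Eip93F* encodes E93, a transcription factor induced late in the ecdysone response, known for its part in the death of larval tissues such as the salivary glands and in the switch to adult development.

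The name *Eip93F* came with the interval, and the files gave no ground for it. The peak list names no genes, and the available gene table has release 6 coordinates, which were not converted to release 5 here. As background rather than a result, on the release 5 map as it is generally known this stretch of 3R carries *InR*, the insulin receptor gene, and *E2f1*, which encodes a transcription factor of the cell cycle, and *Eip93F* lies farther along the arm. In the release 6 table *InR* and *E2f1* are next to each other, while *E2f1* and *Eip93F* are separated by 41 protein-coding genes and 288 kb. One interval of 100 kb could therefore not hold both *E2f1* and *Eip93F*. For these reasons the peaks are called by their position, and none is assigned to *Eip93F* or to any other gene.

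The 24 peaks formed 5 regions when peaks at most 5 kb apart, edge to edge, were joined. These regions are called A to E in the order of the coordinates. Region A (17411652 to 17416568) held 2 peaks, region B (17421986 to 17422272) held 1, region C (17427958 to 17443449) held 11, region D (17450491 to 17457165) held 7 and region E (17478746 to 17484707) held 3. From the first to the last peak the group spanned 73.1 kb. The first 11.7 kb and the last 15.3 kb of the interval held no peak.

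**Figure D1:**
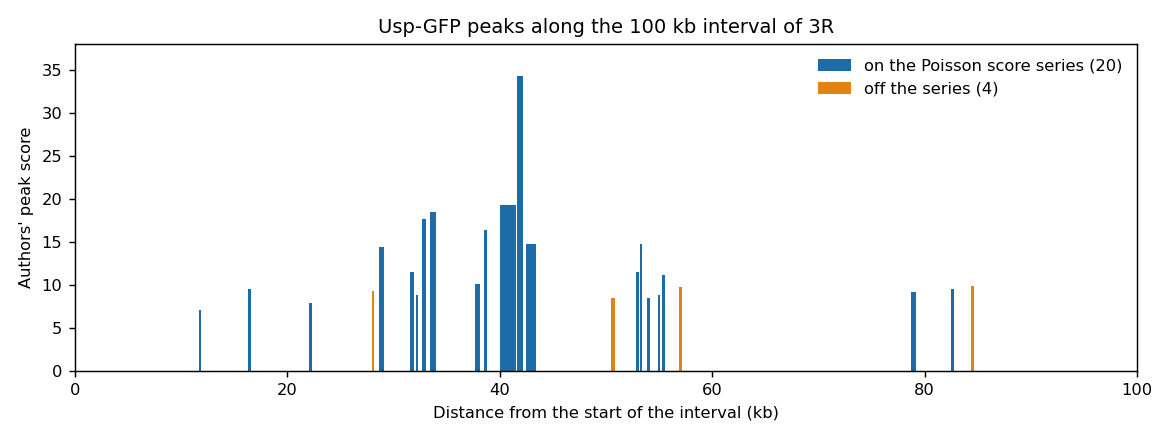
Authors' score (vertical axis) of the 24 Usp-GFP peaks against distance from the start of the interval in kb (horizontal axis); each bar has the width of its peak. The tallest and widest bars stand near 40 kb in region C, and no bar stands between 57.2 and 78.7 kb.

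The authors' score has no stated scale, but its repeated values followed a pattern from which an enrichment could be read. With a fitted background of 43.9, read as genome-wide, these repeated values matched −log10 of the Poisson probability of whole-number fragment pileups or higher. A peak within 0.01 of one of these values is said below to lie on the series, and its fold is its pileup over that background. Of the 24 interval peaks, 20 lay on the series (83.3%, exact 95% binomial interval 62.6 to 95.3%), against 73.3% of the other 735 peaks of 3R and a background of 73.6% over all peaks of 3R. The background share lies inside the interval of the 24 peaks. Pileups ran from 83 to 148. Intervals of folds are exact 95% Poisson intervals and, like those of shares, cover counting error only.

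Region C was the core of the group. Its 11 peaks covered 5931 bp, which was 61.8% of all bases covered in the interval, and 38.3% of its own length of 15.5 kb. The median score was 14.8 in region C, 9.77 in region D and 9.46 in region E, and the peaks of regions A and B scored 7.03, 9.46 and 7.90. Each of the 5 highest scores of the interval lay in region C. Ranges overlapped, since region C also held peaks scoring 8.82 and 9.28, below the highest score of region D, 14.8.

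The strongest peak of the interval ran from 17441607 to 17442155, 549 bp, with a score of 34.25. Its pileup of 148 was 3.37 times the background (2.85 to 3.96). It ranked 36 among the 759 peaks of 3R by score. Of the 559 peaks of 3R on the series, 29 had a higher fold. Within the interval, the fold intervals of 12 of the other 19 peaks on the series lay wholly below its own, and those of 7 overlapped it. The peak was picked for its score, from which the fold is read, so these counts are descriptions and not a test.

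The widest peak lay immediately before it, from 17440063 to 17441501, 105 bp away. With 1439 bp it ranked 17 by width on 3R. Its score was 19.3 and its fold 2.67 (2.20 to 3.19). On the other side, 338 bp from the strongest peak, a 956 bp peak from 17442494 to 17443449 scored 14.8 and reached 2.41 times (1.98 to 2.92). These 3 peaks together covered 86.9% of the 3387 bp from 17440063 to 17443449. The 5 kb bin that holds them was 58.9% covered by peaks. Of the 5561 bins of 5 kb along 3R, 12 were covered to at least that extent, that bin included.

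The rest of region C fell into smaller groups when only peaks at most 1 kb apart were joined. The first pair lay from 17427958 to 17428178 (221 bp, score 9.28, off the series) and from 17428642 to 17429121 (480 bp, score 14.42, 2.39 times the background). A group of 4 peaks followed, over 2455 bp from 17431562 to 17434016, with scores along the arm of 11.48, 8.82, 17.61 and 18.45. The last of these, 17433433 to 17434016, measured 584 bp, and its fold of 2.62 (2.16 to 3.14) came after those of the strongest and the widest peak. Scores within this group thus differed between close neighbours, with the 240 bp peak from 17432088 to 17432327 at 2.03 times (1.63 to 2.50) between stronger ones, though their fold intervals overlap. A further pair lay from 17437702 to 17438132 (431 bp, score 10.11, 2.12 times) and from 17438468 to 17438806 (339 bp, score 16.38, 2.51 times).

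Region D began 7.04 kb after region C and was made of narrow peaks of low to middle score. Its 7 peaks were 202 to 359 bp wide, with a median of 262 bp, against 431 bp for the 11 peaks of region C. A single peak from 17450491 to 17450811 (321 bp, score 8.44, off the series) was followed by 5 peaks packed into 2677 bp, from 17452863 to 17455539. Along the arm these 5 scored 11.48, 14.8, 8.51, 8.82 and 11.13 and reached 2.21, 2.41, 2.00, 2.03 and 2.19 times the background. The highest of them, 17453171 to 17453432, was 262 bp wide and lay 101 bp from its neighbour, the smallest gap of the interval. The last peak of the region, from 17456876 to 17457165 (290 bp), scored 9.77 and lay off the series at a tolerance of 0.01 and on it at 0.015.

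The peaks of the outer regions A, B and E scored from 7.03 to 9.86, a range that 4 peaks of region D and 2 of region C shared. After region D came the longest gap, 21.6 kb, and then the 3 peaks of region E, from 17478746 to 17479195 (450 bp, score 9.14), from 17482469 to 17482742 (274 bp, score 9.46) and from 17484400 to 17484707 (308 bp, score 9.86, off the series). The 2 on the series reached 2.05 and 2.07 times the background. At the other end, region A had peaks from 17411652 to 17411894 (243 bp, score 7.03) and from 17416324 to 17416568 (245 bp, score 9.46), at 1.89 (1.51 to 2.34) and 2.07 times. The lone peak of region B (287 bp, score 7.90) reached 1.96 times. The fold intervals of all these outer peaks on the series overlapped one another.

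**Figure D2:**
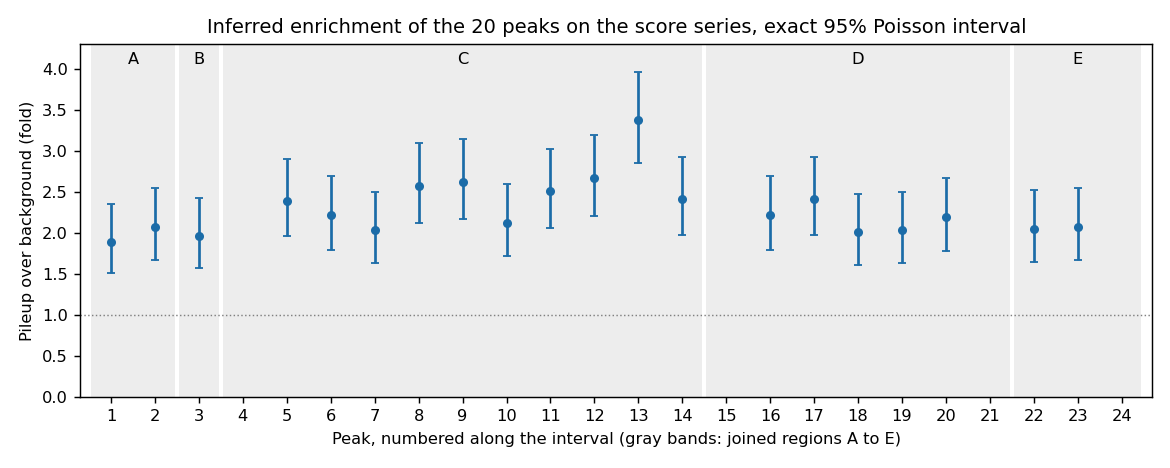
Pileup over background (vertical axis) of the 20 interval peaks on the score series, numbered along the arm (horizontal axis), with exact 95% Poisson intervals; the dotted line marks the background and gray bands the joined regions A to E. Peak 13, in region C, is the highest at 3.37, and the lowest is peak 1 at 1.89; the 4 numbers with no point are peaks off the series.

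Set beside the other peaks of 3R, the interval was rich in peaks but their median score was lower. The median score was 9.985 in the interval (interquartile range 9.06 to 14.8) and 12.17 for the other 735 peaks of 3R (9.77 to 16.79). Of the 24 peaks, 8 (33.3%, interval 15.6 to 55.3%) reached the top 50% of scores on 3R, where ties put the background at 50.1%, and 4 (16.7%, 4.74 to 37.4%) reached the top 25%, with a background of 25.2%. The top 10% held 1 of the 24, the strongest, against a background of 10.3%. The backgrounds of 50.1% and 25.2% lie inside these intervals. A score under 10 was found in 12 of the 24 peaks (50%), against 28.2% of the other peaks of 3R and 28.9% of all of them. That limit was chosen after the values were seen and lies next to the median of the 24 peaks, so their share of 50% follows from the choice. Peaks are not replicates, and no test was made of these differences. For peaks on the series the median fold was 2.20 in the interval and 2.30 for the other peaks.

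Widths were close to those of the arm. The median was 314.5 bp in the interval (interquartile range 244.5 to 435.75 bp) and 324 bp for the other peaks (251 to 457 bp). A width over 1 kb was found in 1 of the 24 peaks, against a background of 5.53%. Across the 24 peaks the Spearman correlation of score with width was 0.53, and it was 0.56 across the other peaks of 3R. Score and width are not independent readouts of a peak, because 1 call made both, so these values are descriptions.

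**Figure D3:**
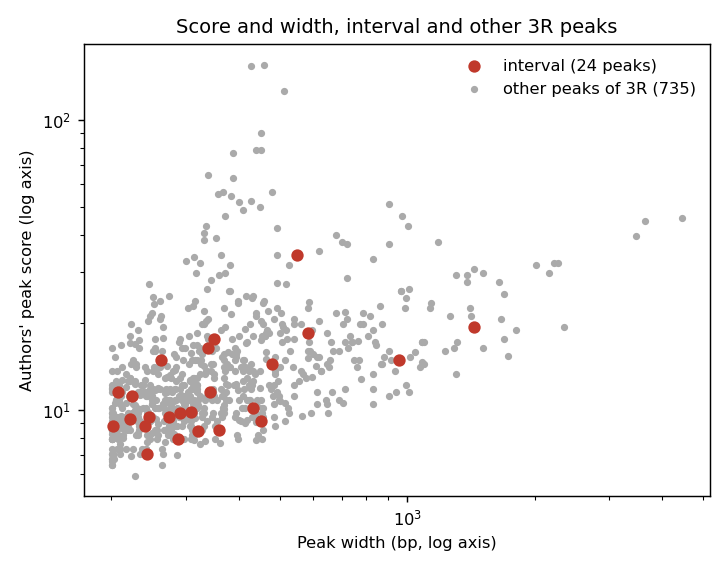
Authors' score against peak width in bp, both on log axes, for the 24 interval peaks and the 735 other peaks of 3R. The interval peaks lie within the cloud of the others, from 7.03 to 34.25 in score, while other peaks of 3R reach 155.

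By the median gap, peaks of the interval were about as close to one another as peaks of 3R at large. A neighbour within 5 kb was found for 23 of the 24 (95.8%, 78.9 to 99.9%), and the peak of region B was the exception. The background over all peaks of 3R was 80.8%. The 24 peaks were selected by position and are not independent draws, so the binomial interval tests nothing about their crowding. The gap between neighbours had a median of 1256 bp in the interval and 1343 bp over 3R. Within joined regions it was 463 bp in the interval, over 19 gaps, and 546 bp over the 493 such gaps of 3R. Of all gaps, 43.5% in the interval and 30.3% over 3R were under 500 bp, and 47.8% and 43.4% were under 1 kb. Within joined regions the shares under 500 bp were 52.6% and 46.7%, and those under 1 kb were 57.9% and 66.7%. Region C was 1 of 18 regions of 3R with 10 or more peaks. It held 11 of the 24 peaks (45.8%, 25.6 to 67.2%), against 35.4% of all peaks of 3R in regions of that size. The 11 peaks are a single region, so that binomial interval tests nothing either. Among these 18 regions the highest score per region ran from 18.87 to 64.72 with a median of 26.3, and region C had 34.25. The median score per region ran from 9.67 to 14.8, so region C, at 14.8, stood at the top of that range. It ranked 13 among all 266 joined regions of 3R by number of peaks.

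Cut into fixed windows of 100 kb, 3R had 279 windows, of which 126 held no peak. The interval ranked 4 by number of peaks and 6 by the share of bases in a peak, 9.60%, where the mean of all windows was 1.19%. That rank rests on where the windows begin, since windows shifted by 50 kb split the peaks and ranked 13 and 26. Windows with a peak held a median of 2. The 3 windows with more peaks lay from 12000001 to 12100000 with 37 peaks, from 19700001 to 19800000 with 29, and from 2200001 to 2300000 with 25. The median score was 9.985 in the interval and 13.7, 11.1 and 13.3 in these windows. The interval was covered to 9.60%, and the same windows to 19.8%, 9.99% and 20.3%. The highest score was 34.25 in the interval and 52.6, 20.6 and 39.7 in these windows. The interval thus had the lowest median score of the 4 windows and the lowest coverage, and its strongest peak came after those of the first and the last of them. The next windows by number of peaks held 23 each, and their median scores and coverage fell on either side of those of the interval. From 5700001 to 5800000 the median score was 9.46 and coverage 8.56%, both lower than in the interval. From 13500001 to 13600000 they were 13.28 and 14.5%, both higher.

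The interval was isolated on both sides. The nearest peaks before it lay from 17191004 to 17191319 (score 29.59, 3.17 times the background) and from 17162543 to 17162907 (score 15.19, 2.44 times), the first of them 209 kb from the limit of the interval. The nearest after it lay from 17607201 to 17607490 (score 17.61, 2.57 times) and from 17652957 to 17653247 (score 9.44, off the series), at 107 and 153 kb. The limits of the interval therefore divided no group of peaks, and a peak taken by any overlap in place of its midpoint gave the same 24.

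Since the place of *Eip93F* was in doubt, the 400 kb after the interval were also read, a choice made after the values were seen. They held 24 peaks. Region joining gave 12 peaks from 17652957 to 17667728 and 7 from 17672840 to 17680854, whose highest scores were 51.39 (17663890 to 17664794, 905 bp, 4.06 times the background) and 50.18 (17674631 to 17675079, 449 bp, 4.01 times). Both exceeded the 34.25 of the strongest interval peak. Farther on, 3 peaks lay from 17766661 to 17770085, with scores of 17.2, 7.31 and 14.42, and 1 from 17853009 to 17853292 with a score of 9.92. The stretch of 82.9 kb between these last regions held no peak, nor did the 85.8 kb before the 3 peaks and the 122 kb after region E. In the release 6 table *Eip93F* measures 65.4 kb, is 288 kb from *E2f1* and lies between the protein-coding genes *Qsox2* and *Theg*. Its length alone does not place it in any of these stretches. If *E2f1* lies in the interval and the 288 kb holds in release 5, *Eip93F* lies after the regions of 12 and 7 peaks. Where the gene lies among these peaks in release 5 coordinates was not checked.

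**Figure D4:**
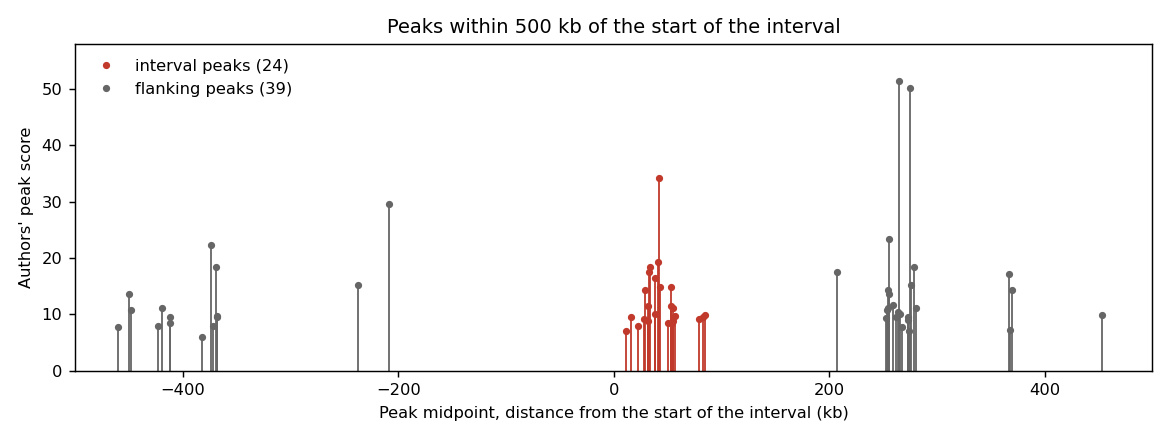
Authors' score (vertical axis) of the 24 interval peaks and the 39 other peaks of 3R within 500 kb of the start of the interval, against the distance of the midpoint from that start in kb (horizontal axis). The interval peaks stand apart from the nearest others by over 100 kb on each side, and the highest scores shown, 51.39 and 50.18, belong to a group that follows them.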

How the data were processed

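The authors deposited 1 peak list for the 2 ChIP and 2 input libraries, called with MACS on FlyBase release 5 per the file headers, with a score per peak. In the submitters' processing notes stand MACS2, BWA, the build BDGP5 and CASAVA in versions 1.7.0.2 and 1.7.0.3, without their roles. The calling threshold, duplicate handling and any pooling are not stated there. Per the labels' protocols, cross-linking took 15 min in 1.8% formaldehyde, and the culture temperature was 25 °C.

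The members, and the lists and limits used to describe them, were chosen with earlier results of these data known. The background of the score series was fitted to the 52 score values shared by at least 10 peaks (mean distance 0.00298). The fit was tested on simulated data. Those were drawn from the same formula, so the test cannot show that the authors' score has this scale. A score off the series may have been set against a higher local background. Bins of 5 kb and windows of 100 kb start at position 1 of 3R. Ties at the score limits were kept. All 24 peaks were described, as the rule for named peaks asks when there are at most 30. That rule also covers the 4 nearest outside peaks and the 3 denser windows. The peaks farther along the arm and the windows of 23 peaks fall outside it and were picked once the values were known. No hypothesis test was run, since no peak has values per library. Values were computed with Python 3.11.15, using scipy 1.17.1, pandas 2.3.3 and numpy 2.4.6, and plotted with matplotlib 3.10.9. No sequences or genes were assigned to peaks, since no release 5 genome or annotation was used here.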

Additional observations from a re-analysis of the deposited data

How the results depend on the processing

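No paired analysis was possible because the authors' list gives each peak 1 score over all libraries, and for the same reason no replicate could be left out. Of 15 alternative values, 5 stayed close to the value reported and 10 moved. The 24 peaks became 8 in the top 50% and 4 in the top 25% of 3R peaks by score, and the covered share of 9.60% became 4.96% and 2.92%. In the top 50%, the median score was 17.0 in place of 9.985 and the median width 514.5 bp in place of 314.5 bp, as a limit on score sets by construction. Joining peaks at 1 kb gave 13 regions and at 20 kb 2, in place of 5. Windows shifted by 50 kb split the peaks: the window toward the start ranked 13 by number of peaks (14 peaks) and that toward the end ranked 26 (10 peaks), so the rank of 4 rests on where the windows begin. The count was 18 with the interval narrowed by 25 kb on each side and 24 with it widened by 50 kb. The share on the series was 87.5% at a tolerance of 0.015. Against all 6 chromosome arms, 16.7% of the peaks were again in the top 25% by score. What limits every value is the single list: depth, spread between the 2 ChIP libraries and input at each peak are unknown.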
